A study of Homo sapiens with 6 samples.

Results

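The genes described here are HILPDA and 9 other genes of the lipid droplet, PLIN2, PLIN3, PNPLA2, ABHD5, G0S2, DGAT1, DGAT2, MGLL and LIPE. HILPDA was chosen by its FPKM values in this comparison, because it was lower after the knockdown of ARHGEF2 in these libraries, so its own values are given as a description, and its adjusted p is not used as a test. The other 9 genes were chosen for what they are known to do with stored fat. These 10 genes are 10 of 27605 genes in the expression table, and 7 of the 10 were expressed highly enough to be tested.

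Messenger RNA was sequenced from a hepatoma line labelled HepG2, in 3 libraries with a control hairpin (shNC, genotype labelled WT) and 3 libraries with a hairpin against the guanine nucleotide exchange factor ARHGEF2 (shARHGEF2, genotype labelled ARHGEF2 knockdown). Both groups were grown in DMEM with fetal bovine serum and antibiotics, the hairpins were delivered by lentivirus, and no other agent was given. Neither the number of hairpins behind the 3 shARHGEF2 libraries nor a separate culture for any library is given in the labels, so a p-value here measures only the spread between these libraries. The comparison asks which transcripts differ when ARHGEF2 is reduced.

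Lipid droplets are the stores of neutral fat in a cell, a core of triglyceride and sterol ester under a coat of perilipins. The acyltransferases DGAT1 and DGAT2 make the triglyceride, and a chain of lipases takes it apart again, with PNPLA2 (adipose triglyceride lipase) at the first step, LIPE (hormone-sensitive lipase) at the second and MGLL (monoglyceride lipase) at the last. ABHD5 activates PNPLA2, whereas the small proteins HILPDA and G0S2 bind and inhibit it. HILPDA takes its name from its induction in low oxygen, where hypoxia-inducible factors (HIF) raise it, and several of these genes are also known targets of PPAR factors.

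HILPDA is the gene the set turns on, and its message codes for an unusually short protein. The coding sequence of transcript HILPDA-201 (GENCODE 29) lies whole within exon 2 of 2 at chr7:128457269-128457460 on the plus strand of GRCh38 and has 63 codons before the stop, in a transcript of 1349 nt. It is shown as the inhibitor whose RNA was lower, with the start and stop codons in capitals.
HILPDA coding sequence: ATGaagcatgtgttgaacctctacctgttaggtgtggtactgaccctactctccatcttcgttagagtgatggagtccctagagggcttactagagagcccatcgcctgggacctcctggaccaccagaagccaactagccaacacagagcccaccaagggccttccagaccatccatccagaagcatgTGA
RefSeq promoters (GRCh38.p14, windows of 300 bases around the start) were matched for 6 of the 10 genes, PNPLA2, ABHD5, LIPE, G0S2, PLIN2 and PLIN3, with 9 windows in all. HIF proteins bind a core of ACGTG or GCGTG, and both were searched on both strands. ACGTG occurred in 1 of the 9 windows, that of PLIN2, and in 21.4% of 35116 RefSeq promoters. GCGTG occurred in 5 of the 9, those of G0S2, PLIN2 and PLIN3 and 2 windows of ABHD5, and in 36.5% of all promoters. Those 5 windows had 65.0 to 76.7% GC and the rest 47.7 to 75.7%, beside a median of 58.7% over all promoters. No promoter of HILPDA was matched. The 250 bases before the start of PLIN2, chr9:19127493-19127742 on the minus strand, and of PNPLA2, chr11:818664-818913 on the plus strand, are shown because these genes had the lowest and the highest mean level of the 10. Capitals mark ACGTG alone, on either strand, and 2 of the 3 matches of PLIN2 share the palindrome CACGTG.
PLIN2 promoter: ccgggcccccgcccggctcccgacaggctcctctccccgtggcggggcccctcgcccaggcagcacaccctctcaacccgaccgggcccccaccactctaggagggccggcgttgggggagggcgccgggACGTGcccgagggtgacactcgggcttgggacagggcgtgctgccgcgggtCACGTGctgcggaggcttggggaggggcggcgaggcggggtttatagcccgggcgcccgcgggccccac
PNPLA2 promoter: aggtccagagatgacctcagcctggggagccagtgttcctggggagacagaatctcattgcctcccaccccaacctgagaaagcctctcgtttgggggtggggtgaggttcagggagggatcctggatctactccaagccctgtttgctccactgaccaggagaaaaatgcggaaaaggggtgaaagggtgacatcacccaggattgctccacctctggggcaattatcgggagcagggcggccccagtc

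Values are fragments per kilobase of transcript, relative to the mapped fragments of the library (FPKM), as deposited, and fold changes are on log2(FPKM + 1), which understates the change of genes at a low level. The libraries held an estimated 20000000 to 23220000 read pairs. The targeted gene ARHGEF2 was at 13.03, 14.4 and 13.9 FPKM in shNC replicates 1 to 3 and at 4.25, 4.004 and 4.82 FPKM in shARHGEF2, and it fell by 1.47 on the log2 scale (SE 0.11, adjusted p = 0.00244 in limma). Of 12291 genes tested, 34 (0.277%) passed an adjusted p under 0.05, and between 0 and 102 did so under the other settings. All 17 housekeeping genes examined were at 2.88 FPKM or more in every library. Of 12 hepatocyte markers, 5 had a row in the expression table used here (AFP, APOA1, APOA2, SERPINA1 and HNF4A). They were at or under 0.248 FPKM in every library, against the label of a liver line. The other 7 (ALB among them) had no row. Of 4 general epithelial markers, KRT18 stood at 148 to 216 FPKM, but 2 (EPCAM and CDH1) were under 0.5 FPKM in every library. The level of a gene in such bulk RNA does not tell fewer cells of a type from less RNA per cell.

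HILPDA stood at less than 0.5 of its control level with the ARHGEF2 hairpin, and the lipase that it inhibits stood higher in each of those libraries, though without passing the test. HILPDA (ENSG00000135245) was at 11.1, 11.8 and 11.1 FPKM in shNC replicates 1 to 3 and at 6.38, 4.73 and 5.13 FPKM in shARHGEF2 replicates 1 to 3. The 3 shNC libraries lay close together, and every shARHGEF2 library lay below all of them. The means were 11.3 ± 0.410 FPKM and 5.41 ± 0.863 FPKM (SD, n = 3 each), a ratio of 0.478. On the log2 scale the difference was -0.95 (SE 0.12), a description of the gene that was chosen for it. It ran from -1.06 to -0.87 in the 14 alternative settings. These reuse the libraries in which HILPDA was chosen, so the kept direction follows from the choice. An estimated 175 to 362 read pairs stood behind the value in a shNC library and 81.4 to 177 in a shARHGEF2 library, according to which of its 3 listed transcripts is taken. In GENCODE 29 the gene overlaps AC010655.4 and AC010655.2 on its own strand, and the strand setting of the authors' counting is not given in the sources used here, so reads of these genes could be shared.

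**Figure D1:**
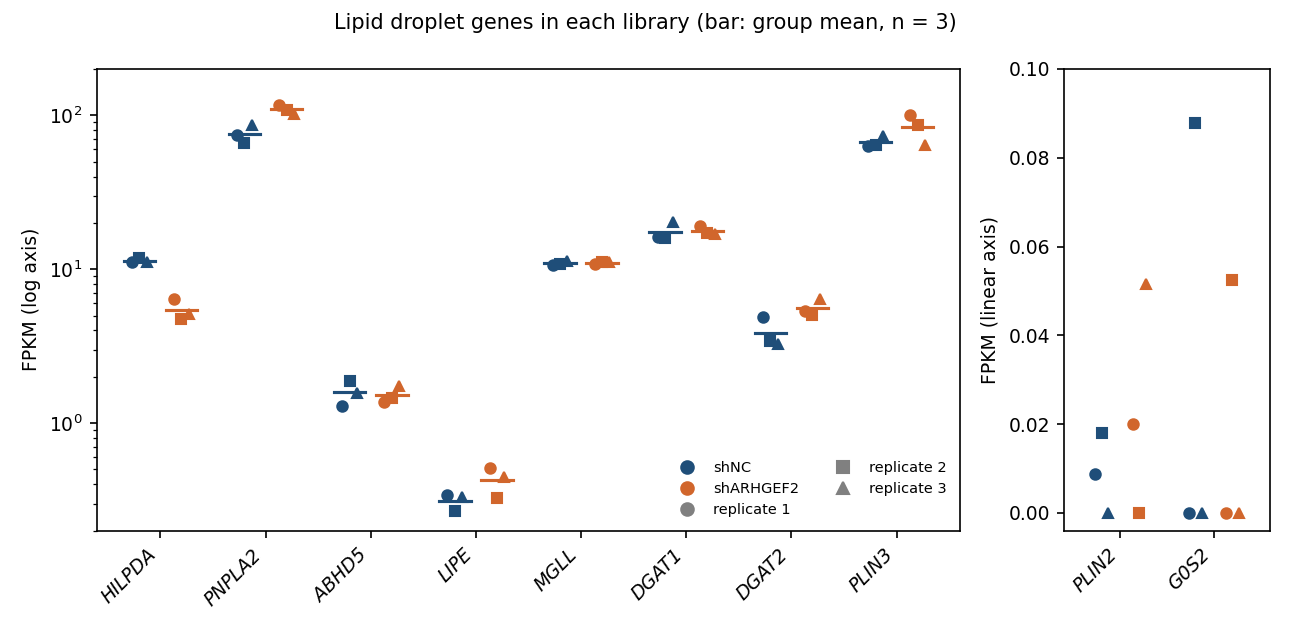
Level of each of the 10 lipid droplet genes in each library (points, FPKM; log axis on the left, linear axis on the right for PLIN2 and G0S2), with bars for group means of n = 3. The 3 shARHGEF2 points of HILPDA, 4.73 to 6.38 FPKM, lie below the 3 shNC points, 11.1 to 11.8 FPKM, and PNPLA2 and DGAT2 are the other tested genes whose groups do not overlap.

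G0S2, the other inhibitor of the lipase, was barely detected. G0S2 (ENSG00000123689) was listed at 0, 0.0878 and 0 FPKM in shNC and at 0, 0.0524 and 0 FPKM in shARHGEF2. Replicate 2 of each group was the only library with a value above 0, which stood for at most 1.70 estimated read pairs, so no difference was detectable at this depth. HILPDA was thus the inhibitor with a measurable message in these libraries.

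PNPLA2, which opens the breakdown of triglyceride, was the most abundant of the 10 genes. PNPLA2 (ENSG00000177666) was at 75.0, 65.8 and 86.4 FPKM in shNC and at 117.5, 108.0 and 102.6 FPKM in shARHGEF2. All 3 shARHGEF2 libraries were above all 3 shNC libraries, with means of 75.7 ± 10.3 FPKM and 109.4 ± 7.55 FPKM (SD, n = 3 each), a ratio of 1.44. The log2 fold change of 0.53 (SE 0.11, 95% interval 0.27 to 0.79) did not pass (adjusted p = 0.117 in limma, unadjusted p = 0.0013). The exact two-sided permutation test gave p = 0.1, the smallest that 3 libraries against 3 allow. Over the 14 alternative settings the difference was 0.44 to 0.63 and the adjusted p 0.0526 to 0.408. An antisense gene, AP006621.1, overlaps PNPLA2. DGAT2 and LIPE overlap genes on their own strand in GENCODE 29 (AP001922.3 and AC011497.1), and ABHD5, MGLL, DGAT1 and PLIN3 overlap ANO10, KBTBD12, HSF1 and AC027319.1.

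The ratio of inhibitor to lipase was lower in shARHGEF2, which follows by arithmetic from a lower HILPDA and a higher PNPLA2. For every 100 FPKM of PNPLA2 there were 14.7, 17.9 and 12.9 FPKM of HILPDA in shNC replicates 1 to 3 and 5.43, 4.38 and 5.00 FPKM in shARHGEF2. The groups did not overlap. On log2 of FPKM without the added 1, unlike the fold changes, the ratio was lower by a difference of -1.61 (SE 0.17) in shARHGEF2. That difference ranged from -1.73 to -1.49 with 1 library left out. A ratio within a library does not depend on library scaling, and since HILPDA was chosen for its level it carries no test. In the plot of the pair the 6 libraries form 2 corners, with no library of one group near the other group. The separation along the HILPDA axis follows from its choice. Along the other axis, 11.3% of all genes tested were without overlap in the direction of PNPLA2, and 20.5% in either direction.

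**Figure D2:**
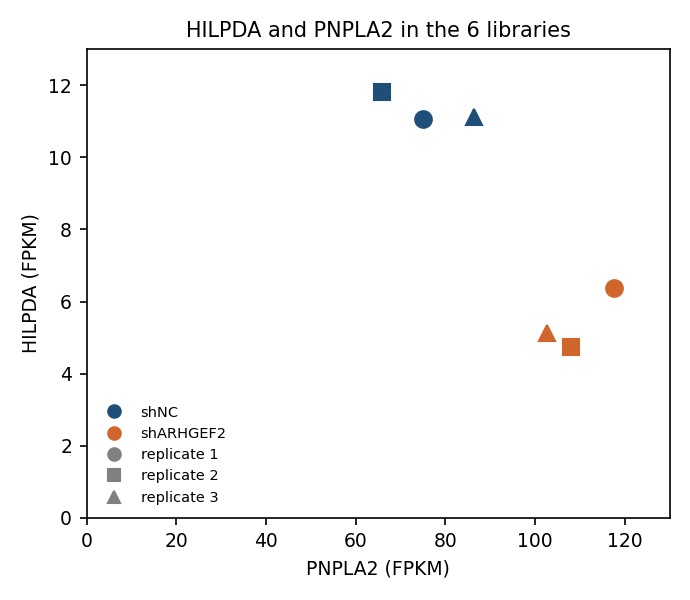
HILPDA (vertical axis, FPKM) against PNPLA2 (horizontal axis, FPKM), 1 point per library, with colour for the group and shape for the replicate number. The shNC libraries sit at the upper left, with PNPLA2 from 65.8 to 86.4 FPKM, and the shARHGEF2 libraries at the lower right, with PNPLA2 from 102.6 to 117.5 FPKM.

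The activator of the lipase and the later lipases showed no difference that passed the test. ABHD5 (ENSG00000011198) was at 1.28, 1.89 and 1.57 FPKM in shNC and at 1.36, 1.46 and 1.75 FPKM in shARHGEF2. The groups overlapped fully, and the log2 fold change was -0.03 (SE 0.13, 95% interval -0.33 to 0.27, adjusted p = 0.961 in limma), with a sign that changed when shNC replicate 2 or shARHGEF2 replicate 1 was left out. The log2 ratio of ABHD5 to PNPLA2 was lower in shARHGEF2 by a difference of -0.58 (SE 0.28), an untested value. The groups came within reach of each other, at 1.711 FPKM of ABHD5 per 100 FPKM of PNPLA2 in shNC replicate 1 and 1.707 in shARHGEF2 replicate 3. The log2 ratio of PLIN3 to PNPLA2 overlapped between groups, with a difference of -0.23 (SE 0.15).

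MGLL, which releases the last fatty acid, was the steadiest of the genes. MGLL (ENSG00000074416) was at 10.7, 10.9 and 11.4 FPKM in shNC and at 10.8, 11.1 and 11.2 FPKM in shARHGEF2. Its groups lay within the same narrow range, with a log2 fold change of 0.01 (SE 0.09, 95% interval -0.20 to 0.22, adjusted p = 0.984 in limma), and the sign turned under quantile normalization, with the GC trend removed, and without shNC replicate 1 or shARHGEF2 replicate 3. LIPE (ENSG00000079435), at 0.342, 0.266 and 0.332 FPKM in shNC and 0.513, 0.324 and 0.447 FPKM in shARHGEF2, was under the minimum mean of 0.5 FPKM and was not fitted. Its groups overlapped (exact permutation p = 0.3).

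The 2 enzymes of the final step of triglyceride synthesis differed in their patterns, though neither passed the test. DGAT2 (ENSG00000062282) was at 4.86, 3.44 and 3.27 FPKM in shNC and at 5.36, 5.02 and 6.39 FPKM in shARHGEF2. The 3 shARHGEF2 libraries were higher, but shNC replicate 1 came close to them, and the means were 3.86 ± 0.877 FPKM and 5.59 ± 0.709 FPKM (SD, n = 3 each). The log2 fold change was 0.45 (SE 0.15, 95% interval 0.10 to 0.80, adjusted p = 0.255 in limma, exact permutation p = 0.1). DGAT1 (ENSG00000185000), the more abundant of the 2, was at 16.1, 16.0 and 20.4 FPKM in shNC and at 18.9, 17.3 and 17.0 FPKM in shARHGEF2. The highest value belonged to shNC replicate 3, the groups overlapped, and the log2 fold change was 0.03 (SE 0.12, 95% interval -0.24 to 0.29, adjusted p = 0.953 in limma), with a sign that turned in 5 of the 14 alternative settings. The DGAT2 to DGAT1 ratio overlapped between groups, and its log2 difference of 0.52 (SE 0.29) was not tested and ran from 0.30 without shNC replicate 3 to 0.76 without shNC replicate 1.

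Of the perilipins, PLIN3 was abundant and PLIN2 was almost absent. PLIN3 (ENSG00000105355), a coat protein that also occurs free in the cytosol, was at 62.8, 64.1 and 73.4 FPKM in shNC and at 99.9, 85.9 and 64.6 FPKM in shARHGEF2. Replicates 1 and 2 of shARHGEF2 were above all shNC libraries and replicate 3 was among them, and the log2 fold change was 0.30 (SE 0.15, 95% interval -0.05 to 0.65, adjusted p = 0.438 in limma). PLIN2 (ENSG00000147872), which coats droplets in most cell types, was listed at 0.0088, 0.0181 and 0 FPKM in shNC and at 0.0199, 0 and 0.0516 FPKM in shARHGEF2. It had at most 2.34 estimated read pairs in a library, and no difference was detectable at this depth.

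Of the 10 genes, 3 (PLIN2, G0S2 and LIPE) were under the filter, 7 were fitted, and 0 of the 6 of these chosen for their function passed in limma, with PNPLA2 and DGAT2 at an unadjusted p under 0.05. Of all genes tested, 0.277% passed and 13.7% had an unadjusted p under 0.05. HILPDA was past the threshold in the contrast that chose it, as were 0.0814% of all genes tested in the lower direction, and nothing is read from its call. Groups did not overlap for PNPLA2 and DGAT2, both higher in shARHGEF2, as for 11.3% of all genes tested in that direction and 20.5% in either direction. The median log2 fold change of the 7 was 0.03 beside 0.00 over all genes tested, with 5 of the 7 above 0. In shNC libraries the levels ran from PNPLA2 and PLIN3, which overlapped, through DGAT1, then HILPDA and MGLL, which overlapped, to DGAT2, ABHD5 and LIPE, with G0S2 and PLIN2 last. In shARHGEF2 libraries HILPDA stood beside DGAT2 rather than MGLL, and the other genes kept their order down to LIPE. HILPDA made up 5.36 to 6.77% of the summed FPKM of the 10 genes in shNC and 2.02 to 2.45% in shARHGEF2, and PNPLA2 made up 37.8 to 41.6% and 45.1 to 49.1%.

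**Figure D3:**
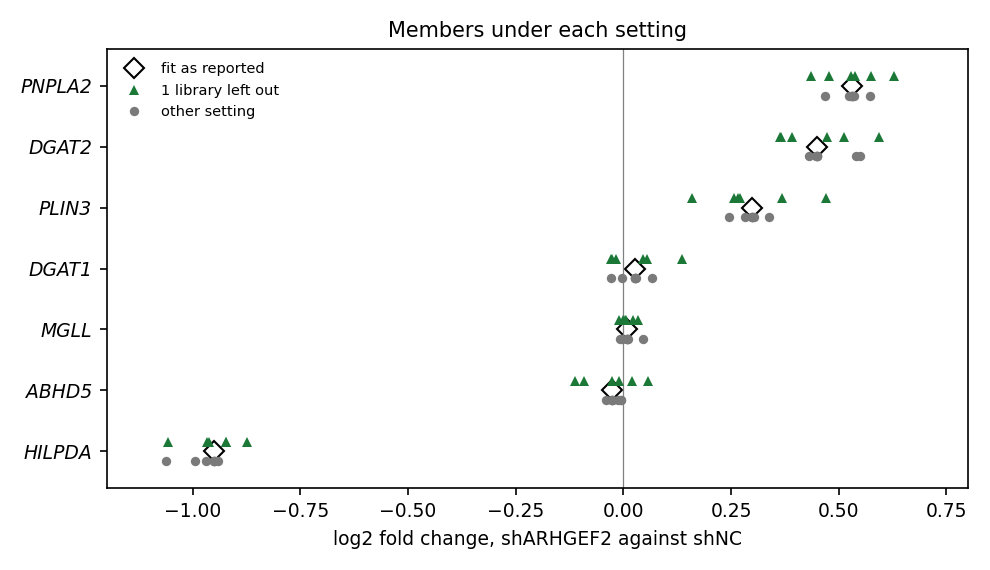
Log2 fold change of the 7 tested genes (horizontal axis, shARHGEF2 against shNC) in the fit as reported (diamonds), with 1 library left out (triangles) and in the other settings (circles). PNPLA2 (0.44 to 0.63), DGAT2 (0.36 to 0.59) and PLIN3 (0.16 to 0.47) stay above 0 and HILPDA (-1.06 to -0.87) below it, while DGAT1, MGLL and ABHD5 lie on both sides of 0.

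Markers of other cell types were summed by list. Most were under the filter: 0 adipocyte, 1 endothelial, 3 fibroblast, 1 leukocyte, 1 squamous and 2 general epithelial markers were tested. None of those tested passed, where 0.277% of all genes tested did. The summed levels did not overlap between the groups for the adipocyte, fibroblast and endothelial lists, all higher in shARHGEF2. As single genes, 11.3% of all genes tested did not overlap in that direction. Of 6 adipocyte markers, 4 had a row (PLIN1, PLIN4, FABP4 and CIDEC), each under 0.5 FPKM in every library. Their summed level was 0.166 to 0.253 FPKM in shNC and 0.384 to 0.543 FPKM in shARHGEF2, most of it PLIN4. The summed level of 4 fibroblast markers was 8.89 to 9.63 FPKM in shNC and 10.4 to 11.9 FPKM in shARHGEF2, most of it COL1A1. Of 4 endothelial markers, the 3 with a row summed to 0.561 to 0.640 FPKM in shNC and 0.775 to 0.866 FPKM in shARHGEF2. PECAM1 was above the others. The summed levels of the 4 leukocyte and 4 squamous markers overlapped between groups, with CD68 at 60.4 to 87.8 FPKM but PTPRC and CD3E at 0.074 FPKM or less, and so did the 4 general epithelial markers, of which EPCAM and CDH1 were under 0.06 FPKM. The part of these cell types in the values of HILPDA, PNPLA2 and DGAT2 was not tested.

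No gene of the wider machinery of the droplet passed the test, where 0.277% of all genes tested did. A count of 0 in lists of this size is therefore not read as a result. The same share stands beside the count of each of the 4 lists below. Of 46 tested genes in 4 lists, 0 passed in limma, and 4 had an unadjusted p under 0.05. This held in the other 14 settings, each with 0 genes. The median log2 fold change was -0.03, with 19 genes above 0 and 27 below, beside 13.7% of all genes at an unadjusted p under 0.05.

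Of 13 tested genes of the droplet coat and its biogenesis, 0 passed, with a median of 0.00. FITM2, which helps droplets form from the endoplasmic reticulum, was at 4.87 ± 0.778 FPKM in shNC and 6.01 ± 0.544 FPKM in shARHGEF2 (SD, n = 3 each; log2 fold change 0.26, adjusted p = 0.432 in limma). TMEM159, the partner of seipin, had a log2 fold change of 0.17, METTL7B of -0.16 and AUP1 of -0.11, and VCP, the most abundant of the list at 50.3 to 64.0 FPKM, of 0.11. With 1 library left out, TMEM159 ran from 0.033 (without shNC replicate 1) to 0.35 (without shARHGEF2 replicate 1) and METTL7B from -0.34 (without shARHGEF2 replicate 3) to -0.0012 (without shARHGEF2 replicate 2). PLIN1, PLIN5, CIDEB and CIDEC were under 0.1 FPKM in every library. Of the perilipin family, PLIN3 was therefore the only member above 0.5 FPKM in any library, since PLIN4 reached 0.461 FPKM.

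Among 14 tested genes of triglyceride synthesis, 0 passed, with a median of -0.01. AGPAT2, which makes phosphatidic acid, was the most abundant, at 66.5 ± 13.9 FPKM in shNC and 84.0 ± 6.47 FPKM in shARHGEF2 (SD, n = 3 each; log2 fold change 0.35, adjusted p = 0.359 in limma), with overlapping groups. Its relative AGPAT5 had a log2 fold change of -0.29, and the acyl-CoA synthetases ACSL4 and ACSL1, which activate fatty acids, had -0.31 and 0.10. With 1 library left out, ACSL4 ran from -0.56 (without shARHGEF2 replicate 2) to -0.022 (without shARHGEF2 replicate 1), AGPAT5 from -0.39 (without shNC replicate 1) to -0.13 (without shNC replicate 2) and ACSL1 from 0.043 to 0.18. GPAM, the mitochondrial enzyme of the first step, was at 0.224 to 0.592 FPKM and was not tested.

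Of the other 6 tested genes of lipolysis, 0 passed, with a median of -0.01. LIPA, the acid lipase of the lysosome, was at 15.6, 18.8 and 16.8 FPKM in shNC and at 18.7, 23.2 and 21.8 FPKM in shARHGEF2 (log2 fold change 0.30, adjusted p = 0.313 in limma). The lowest shARHGEF2 library lay just under the highest shNC library. PNPLA4 and ABHD6 had log2 fold changes of -0.19 and -0.18, and ABHD12, the most abundant, 0.06 with a sign that turned in some settings. LPL, the lipase of the vessel wall, was at or under 0.05 FPKM.

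Of 13 tested genes that take up, bind or begin to oxidise fatty acids, 0 passed, with a median of -0.05. Of these, 10 of 13 were below 0, where 49.6% of all genes tested were above 0. ACADVL, the acyl-CoA dehydrogenase of very long chains, was at 139 to 154 FPKM in shNC and at 156 to 182 FPKM in shARHGEF2, without overlap (log2 fold change 0.17, adjusted p = 0.459 in limma). The carnitine carrier SLC25A20 and the transport protein SLC27A1 had log2 fold changes of 0.28 and 0.19. The fatty acid binding proteins FABP3 and FABP5 had -0.27 and -0.24, and CD36, a surface receptor for fatty acids, was under 0.06 FPKM in every library.

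In the annotation column of the deposited table, 8 of the 10 genes carry the term lipid droplet, all but MGLL and DGAT1. Of 62 tested genes with that term other than HILPDA, 1 passed in limma, EHD1, where 0.277% of all genes tested passed in either direction. With HILPDA, the 63 genes had a median log2 fold change of 0.03. EHD1, a membrane-shaping protein of endosomes, was at 13.1, 11.2 and 13.9 FPKM in shNC and at 6.50, 6.005 and 5.94 FPKM in shARHGEF2, and was named after its values were seen. It fell by 0.94 on the log2 scale (adjusted p = 0.0284 in limma) and was past the threshold in 7 of 14 alternative settings. Of the genes with the terms lipid storage (15 tested), triglyceride biosynthetic process (11) and triglyceride catabolic process (9), 0 passed. Above 0 were 12, 9 and 4 of them, beside 49.6% of all genes tested. Of 15 tested genes with the term lipid droplet organization, HILPDA was the 1 past the threshold, in the contrast that chose it.

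No factor that is known to act on these genes passed the test. Passing was rare over all genes tested (0.277%), so a count of 0 in this list is not read as a result. Of 18 tested factors of the HIF, PPAR, RXR, LXR and SREBP families and their regulators, 0 passed in limma, and 3 had an unadjusted p under 0.05, where 13.7% of all genes tested did. Groups did not overlap for 4 of the 18, all higher in shARHGEF2, where 11.3% of all genes tested were so. HIF1A was at 16.1, 24.5 and 19.5 FPKM in shNC and at 13.9, 24.0 and 19.2 FPKM in shARHGEF2, with a log2 fold change of -0.08 (SE 0.21). EPAS1, which encodes HIF-2α, was at 21.2 to 27.8 FPKM and 23.2 to 24.7 FPKM, with a log2 fold change of -0.05 (SE 0.11). The groups overlapped for both.

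ARNT2, a partner of the HIF alpha subunits, was the factor with the largest log2 fold change among those tested, 0.60 (SE 0.13, adjusted p = 0.117 in limma), from 4.97 ± 0.859 FPKM to 8.02 ± 0.472 FPKM (SD, n = 3 each) without overlap, while ARNT had 0.09. The oxygen sensors EGLN3, EGLN2 and EGLN1 had log2 fold changes of -0.30, -0.22 and -0.07, HIF1AN had 0.06 and VHL 0.02. PPARG, the PPAR of fat storage, was at 8.57 to 10.5 FPKM and 7.96 to 9.51 FPKM, with a log2 fold change of -0.05 (SE 0.12). PPARD had a log2 fold change of 0.11, SREBF1 0.19, RXRA -0.01, RXRB 0.10, NR1H3 0.10 and NR1H2, the most abundant factor, 0.00. The adjusted p of each was 0.438 or more apart from ARNT2.

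Among targets of HIF, 2 abundant genes fell and the others did not pass the test. Of 25 tested HIF targets other than HILPDA, the 2 past the threshold were CA9 and DDIT4, both lower, as were 0.0814% of all genes tested. The list had 9 genes above 0 and 16 below, with a median log2 fold change of -0.10 beside 0.00 over all genes. Groups did not overlap for 7 genes in the lower and 2 in the higher direction, where all genes tested gave 9.17% and 11.3%. Some genes of this list were already known from these libraries, so its direction is not independent evidence.

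CA9, the carbonic anhydrase of hypoxic tumours, was at 201, 199 and 209 FPKM in shNC and at 135, 131 and 136 FPKM in shARHGEF2. It fell by 0.60 on the log2 scale (SE 0.07, adjusted p = 0.0302 in limma). DDIT4, an inhibitor of mTOR signalling, was at 242, 248 and 213 FPKM in shNC and at 154, 155 and 155 FPKM in shARHGEF2. It fell by 0.60 on the log2 scale (SE 0.09, adjusted p = 0.0395 in limma). The 3 shARHGEF2 libraries were close to one another for both genes. CA9 stayed past the threshold in 6 of 14 alternative settings and DDIT4 in 4, and with 1 library left out both did so only without shNC replicate 3.

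NDRG1 had a log2 fold change of -0.55 (SE 0.12, adjusted p = 0.117 in limma) and ANKRD37 of -0.52 (adjusted p = 0.120), both without overlap. ANKRD37 was at a low level, 1.44 ± 0.137 FPKM in shNC and 0.703 ± 0.128 FPKM in shARHGEF2 (SD, n = 3 each). With 0.1 as pseudocount its log2 fold change was -0.945, where that of HILPDA was -1.06. In the other direction, PFKFB3, a driver of glycolysis, had 0.49 and ANGPTL4, a secreted inhibitor of lipoprotein lipase and a target of both HIF and PPAR factors, 0.44. With 1 library left out, PFKFB3 ran from 0.19 (without shNC replicate 1) to 0.92 (without shNC replicate 3) and ANGPTL4 from 0.20 (without shNC replicate 2) to 0.62 (without shNC replicate 3). ANGPTL4 was at 107, 70.1 and 126 FPKM in shNC and at 176, 118 and 115 FPKM in shARHGEF2, with overlapping groups (adjusted p = 0.513). VEGFA, the vessel growth factor, was at 7.53 to 9.55 FPKM in shNC and at 8.30 to 9.38 FPKM in shARHGEF2.

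Of 6 tested PPAR targets, 0 passed in limma, and 1 had an unadjusted p under 0.05, where 0.277% and 13.7% of all genes tested did. PDK4, which spares glucose by braking pyruvate dehydrogenase, had a log2 fold change of 0.40 (adjusted p = 0.483). CPT1A, the gate of fatty acid oxidation, and ACADM had -0.05 and -0.10.

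**Figure D4:**
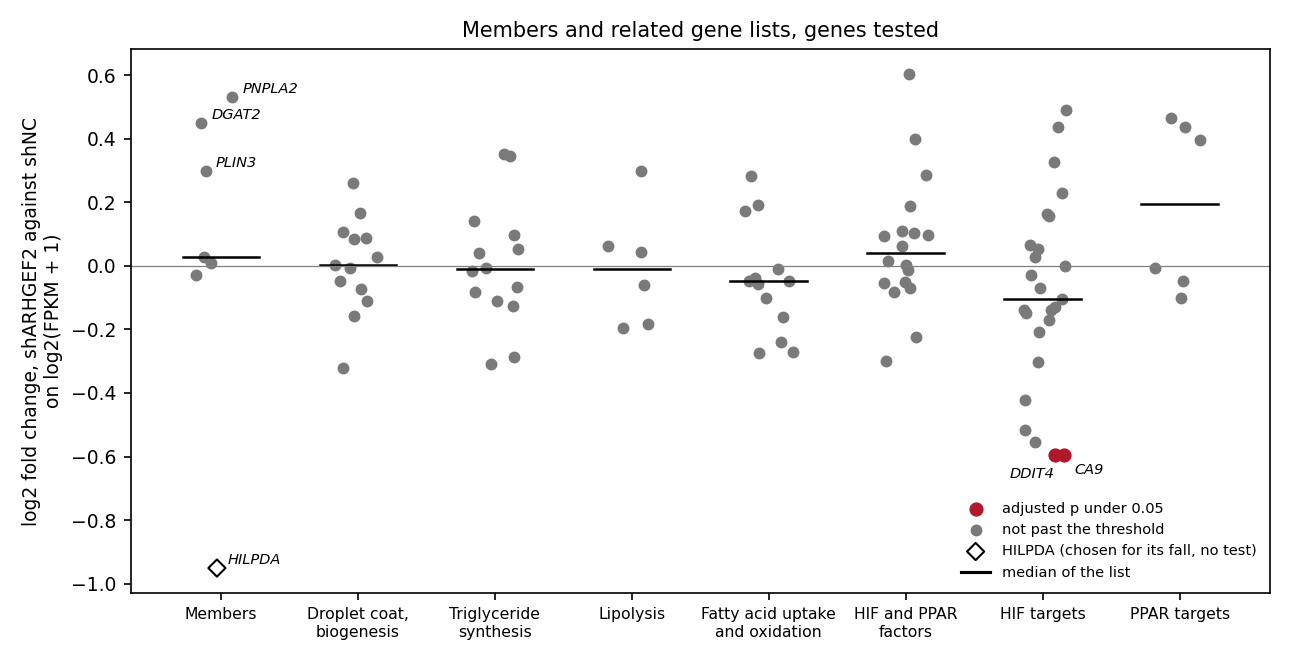
Log2 fold change (vertical axis, shARHGEF2 against shNC on log2(FPKM + 1)) of each tested gene of the 10 lipid droplet genes and of 7 related lists, with bars for list medians. HILPDA (open diamond, -0.95) lies below every other point on this scale, which understates the change of genes at a low level, such as ANKRD37. CA9 and DDIT4 (red) are the tested genes past the threshold, and no gene of the 4 droplet and fat lists is.

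The genes whose pattern over the 6 libraries was most like that of HILPDA were MINDY1 (Pearson r = 0.989), TEAD3 (0.987), ADM (0.982), RABEP2 (0.982) and WNT10B (0.981), out of 10210 genes whose mean reached 1 FPKM. The points share libraries and 2 group means, so r mostly follows the difference between groups. Within groups, r was 0.949, 0.811, 0.611, 0.573 and 0.754, from the same values by which these genes were picked. ADM, the vasoactive peptide adrenomedullin and itself a HIF target, was at 12.9, 14.0 and 13.9 FPKM in shNC and at 10.3, 9.82 and 9.64 FPKM in shARHGEF2. The log2 fold changes of the 5 genes ran from -0.42 to -0.23. They were picked for following HILPDA over these libraries, so the lower direction follows from the choice and no test is read. Among the lipid droplet genes, r with HILPDA was -0.86 for PNPLA2 and -0.79 for DGAT2 over the 6 libraries, and 0.18 and -0.10 within groups.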

How the data were processed

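RNA was sequenced from 3 shNC and 3 shARHGEF2 libraries (poly(A) selection, dUTP strand marking, molecular identifiers, paired ends). Per the labels, the submitters' processing notes name cutadapt 1.9, HISAT2 2.0.4, UMI-tools, StringTie 1.3.4d, DESeq2, edgeR and the build hg19, with no role for each. The authors deposited FPKM per gene for the 6 libraries, beside annotation columns and their own ratio of means with its log2 and p-values, none of which were used.

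FPKM values were taken as deposited. Genes averaging 0.5 FPKM or more over all 6 libraries were fitted with limma 3.58.1 in R 4.3.3 (trended, robust variances, statmod 1.5.0) on log2(FPKM + 1), with Benjamini-Hochberg adjustment over all 12291 genes, with a threshold of 0.05. Single genes were also compared by two-sided exact permutation tests over the 6 libraries. Values are given as mean ± SD. The groups come from the sample titles. Same-numbered libraries were not treated as pairs, since the titles give numbers but no pairing. The correlations of their residuals were 0.184, 0.159 and -0.105, beside -0.221 to 0.068 for libraries of different numbers. These values do not settle whether libraries were paired. With the replicate number as a block, 0 genes passed. Read counts and tests for counts were not used. Read pairs were estimated from the spacing of FPKM times length among low genes, of which 38.4 to 40.1% came within 0.1 of a whole number, where 20% would by chance, so whole counts were not recovered and no counting interval is given. Transcript lengths, overlaps and the HILPDA sequence came from GENCODE 29 (94.7% of 112516 listed transcripts matched) and promoters from RefSeq, both on GRCh38. No position is given on hg19.

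The 10 genes, the lists and the tests were chosen with earlier results of these data known. The genes named are all 10, ARHGEF2, each list's genes past the threshold, the 2 highest, the 2 lowest (of genes averaging 1 FPKM or more) and the most abundant, the factors with such a mean, and the 5 genes most like HILPDA. Others, such as GPAM, LPL, CD36, VEGFA and EHD1, were added after their values were seen. The fit was tested on simulated data for this comparison (12291 genes, 3 libraries a group): a log2 change of 1 in 200 genes was called in 165, with 7 false calls, and one of 0.5 in 0. Other settings tried were the replicate number as a block, 0.1 as pseudocount, other filters, quantile normalization, an equal total per library, plain variances and each library left out. Removal of a GC content trend and the DGAT2 to DGAT1 ratio were added after the data were seen. Tables and plots used Python 3.11.15, pandas 2.3.3, numpy 2.4.6, SciPy 1.17.1 and matplotlib 3.10.9.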

Additional observations from a re-analysis of the deposited data

How the results depend on the processing

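HILPDA, chosen for being lower, was lower in all 14 settings, which follows from the choice, since they reuse the same libraries. Its log2 difference was -0.95 with the replicate block, without the filter and without trended and robust variances. In these 3 settings its adjusted p in limma (0.126, 0.271 and 0.0619) was above the threshold, given as a description and not as a test. The log2 difference ran from -1.06 to -0.87 with 1 library left out. The number of the 10 genes past the threshold was 0 in those 3 settings and 0 to 1 with 1 library left out, and that of HIF and PPAR factors and targets was 0 in the same 3 settings, 1 with quantile normalization or with the GC trend removed, and 0 to 2 with 1 library left out. Over all genes, the number past the threshold was 0 with the block (1976 at an unadjusted p under 0.05), 1 without the filter (2123), 54 with at least 1 FPKM in 3 or more libraries, 19 with quantile normalization and 7 with plain variances, and it ran from 6 without shARHGEF2 replicate 3 to 102 without shNC replicate 3 (13, 14, 13 and 15 without shNC replicates 1 and 2 and shARHGEF2 replicates 1 and 2). A filter that admits more genes adjusts over more tests. The cause of the other shifts was not tested. Libraries 1 and 2 of each group correlated best with their own number and library 3 did not, as a hint from the data only. ARHGEF2 stayed past the threshold in 12 of 14 settings, with an adjusted p of 0.0716 under the block.

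The sign turned for MGLL (-0.0072), DGAT1 (-0.0040) and NR1H2 (-0.016) under quantile normalization, for MGLL (-0.0033), DGAT1 (-0.028) and NR1H2 (-0.053) with the GC trend removed, and for RXRA (0.020) with an equal total per library. With 1 library left out, both signs occurred for MGLL (-0.0092 to 0.033), DGAT1 (-0.028 to 0.14), ABHD5 (-0.11 to 0.056), ABHD12 (-0.071 to 0.15), CPT1A (-0.11 to 0.0014), EGLN2 (-0.50 to 0.060), EPAS1 (-0.15 to 0.033), HIF1A (-0.26 to 0.12), NR1H2 (-0.088 to 0.068), PPARG (-0.10 to 0.031), RXRA (-0.046 to 0.023) and VHL (-0.19 to 0.14). PNPLA2, DGAT2 and PLIN3 kept their direction and did not pass in any of the 14. Of the named genes, 38 moved by over 1.5 times with 1 library left out, none of them past the threshold in the reported fit. Relative GC content differed between libraries, with a rank correlation of the deviations with GC from -0.465 to 0.199 in shNC and -0.289 to 0.570 in shARHGEF2. Depth limits G0S2, PLIN2 and LIPE, and 3 libraries a group limit changes of about 0.5 on the log2 scale. In simulated data with 200 of 12291 genes changed by 0.5, the fit called 0. The number of genes changed in these libraries is not known, and the count of calls depends on it.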
